A study of Ovis aries with 18 samples.

Results

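The 82 genes described here stood strongly low in the soleus of lambs. They were chosen by mean level from 20477 genes in 18 libraries of total RNA, 6 each from soleus (SOL), psoas major (PM) and longissimus lumborum (LL). Levels are FPKM, which are reads scaled to gene length in kilobases and to the library total. The rule required a mean of at least 10 FPKM in both PM and LL, and both means had to reach at least 4 times the SOL mean. Of the 85 genes that met it, 3 were left out beforehand. Soleus is a postural muscle of the hind leg, psoas major the tenderloin muscle under the lumbar spine, and longissimus lumborum the long muscle of the loin. The muscles came from the left side of lamb carcasses, and the labels give no treatment, genotype, breed or age. Libraries carry the numbers 1 to 6 within a muscle, and no label ties a number to an animal. The p-values therefore measure how these libraries spread, which may be partly technical.

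Skeletal muscles differ in their mix of slow and fast fibres. Slow fibres contract slowly, resist fatigue and rely on oxidative metabolism, whereas fast fibres use fast isoforms of myosin, troponin and the calcium pump and draw more on glycogen and glycolysis. Soleus is the textbook example of a slow muscle in many mammals, and loin muscles generally hold more fast fibres. The deposited table gives Ensembl identifiers without gene names, and 0 of them could be paired with a symbol through the reference table used. The 82 genes are therefore described by identifier, and none is assigned to a fibre type, pathway or cell type or called coding or non-coding. For the same reason the muscle labels could not be checked against fibre-type markers. In whole-muscle RNA, fewer cells of a type and less RNA per cell cannot be told apart.

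Library totals recovered from the FPKM steps ranged from 10216739 to 14747118 reads. Between 14181 and 15421 genes were detected in SOL libraries, 14647 to 14942 in PM libraries and 12704 to 14552 in LL libraries. All 82 genes passed the filter of a mean of 0.1 FPKM used for testing. The median number of reads per gene and library was 118.5 in SOL libraries, 1194 in PM libraries and 1498 in LL libraries. Only 5 of the 82 genes had a library without reads, in each case a SOL library. The lowest total over the 6 SOL libraries was 43 reads, and 77 of the genes had at least 100.

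The fold by which soleus stood below the other muscles ranged widely. Because the SOL, PM and LL means chose the genes, these levels are given as a description and were not tested. The lower of the PM and LL means was 4 to 8 times the SOL mean for 48 genes, 8 to 16 times for 14, 16 to 32 times for 12 and over 32 times for 8, with a median of 6.99. Mean levels ran from 0.987 to 776 FPKM in SOL (median 5.77), from 11.1 to 13920.1 FPKM in PM (median 60.2) and from 11.3 to 13426 FPKM in LL (median 74.4). The lower of the PM and LL means lay under 100 FPKM for 52 genes, between 100 and 1000 FPKM for 19 and above 1000 FPKM for 11. Among the 100 most abundant genes of each muscle, 3 of the 82 were found in SOL, 14 in PM and 18 in LL.

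**Figure D1:**
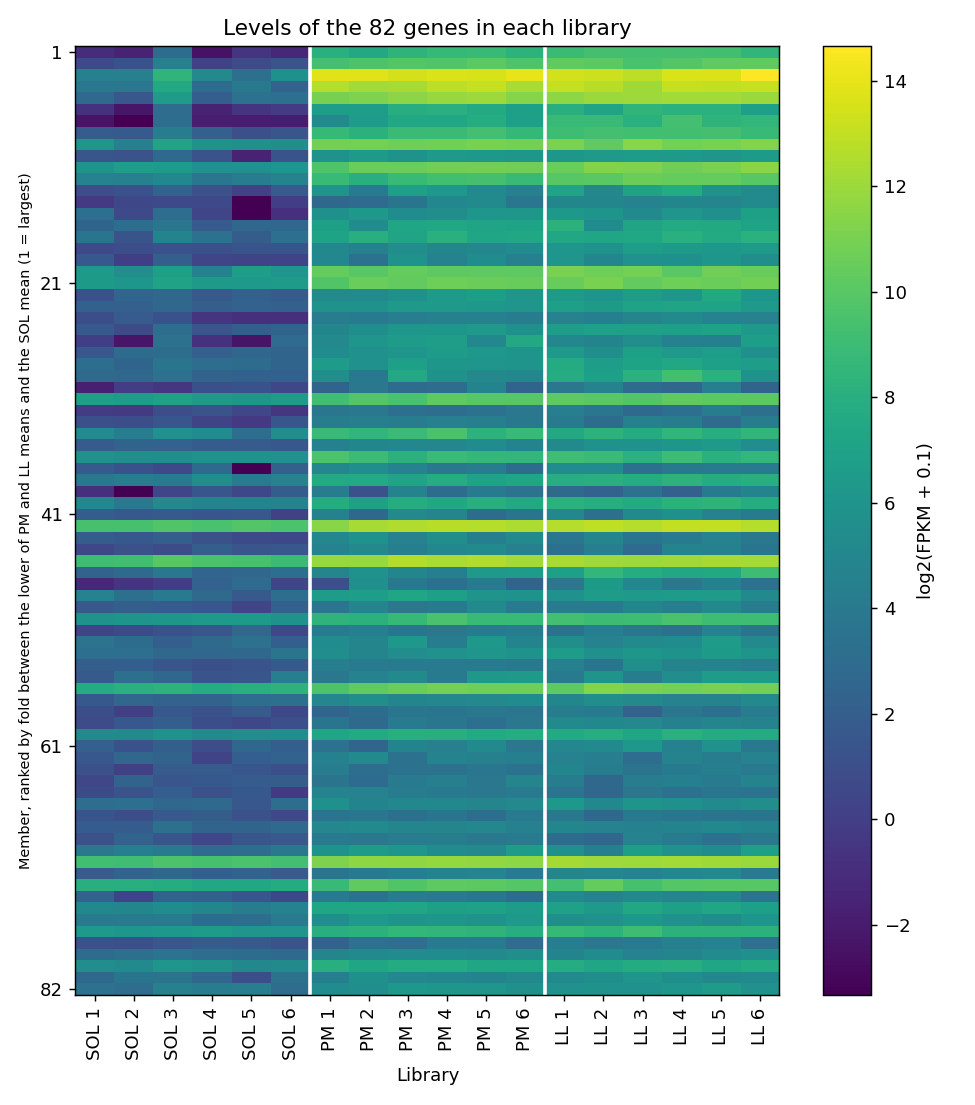
Level of each of the 82 genes (rows, ranked by the fold between the lower of the PM and LL means and the SOL mean) in each library (columns), coloured by log2(FPKM + 0.1). The 6 SOL columns are darker than the 6 PM and 6 LL columns in nearly every row, and in the top rows SOL 3 is lighter than the other SOL libraries.

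Every SOL library lay below every PM library for 78 of the 82 genes and below every LL library for 81. Over all 15434 genes tested, 3.78% lay so against PM and 4.16% against LL, and nothing is read from these counts since the rule used both contrasts. The exception for both muscles was ENSOARG00020026090. In SOL 6 it reached 21.1 FPKM, above the 14.8 FPKM of PM 1 and the 16.4 FPKM of LL 1. It varied in all 3 muscles, from 2.45 to 21.1 FPKM in SOL, 14.8 to 85.1 FPKM in PM and 16.4 to 95.9 FPKM in LL, and library 6 was the highest in each.

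The 6 most abundant of the genes fell into 2 kinds. For 3 of them the SOL mean was under 1% of the PM and LL means, although their SOL medians were still above those of most of the 82 genes. ENSOARG00020010502 had 9.89, 29.1 and 348 FPKM (lowest, median and highest library) in SOL, against 11864, 13755 and 16853 FPKM in PM and 7443, 11875 and 25940.3 FPKM in LL. It ranked second of all genes by mean in PM. This gene has a recovered length of only 96 bp, shorter than the RNA fragments of about 300 bp that the labels describe. Its FPKM rest on 632 reads over the SOL libraries, 99242 over the PM libraries and 91051 over the LL libraries.

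ENSOARG00020020158 (689 bp) had 5.16, 14.2 and 186 FPKM (lowest, median and highest library) in SOL, against 4578, 5873 and 8537 FPKM in PM and 4309, 8366 and 8971 FPKM in LL. ENSOARG00020015460 (708 bp) followed at 2.79, 8.06 and 99.6 FPKM in SOL, against 2033, 2818 and 4151 FPKM in PM and 3166, 4031 and 4602 FPKM in LL. In all 3 genes the highest SOL library was SOL 3, and even that library lay far below the lowest PM or LL library.

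The other 3 of the most abundant genes were still among the 100 most abundant of soleus. ENSOARG00020015962 (1505 bp) had 679, 743 and 909 FPKM (lowest, median and highest library) in SOL, against 2857, 5711 and 6816 FPKM in PM and 6321, 7263 and 8372 FPKM in LL. ENSOARG00020025958 (3249 bp) had 493, 636 and 1022 FPKM in SOL, against 3734, 4989 and 6099 FPKM in PM and 3889, 4468 and 5074 FPKM in LL. ENSOARG00020011417 (2884 bp) had 562, 655 and 813 FPKM in SOL, against 2284, 3182 and 3649 FPKM in PM and 3898, 4307 and 4936 FPKM in LL. Within soleus their coefficients of variation (CV, the SD over the mean of 6 libraries) were 0.127, 0.283 and 0.139. The other genes over 10 FPKM in PM and LL had a median CV of 0.184 in SOL. ENSOARG00020025958 lay above that, with SOL 3 at 1.45 times its second highest SOL library.

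**Figure D2:**
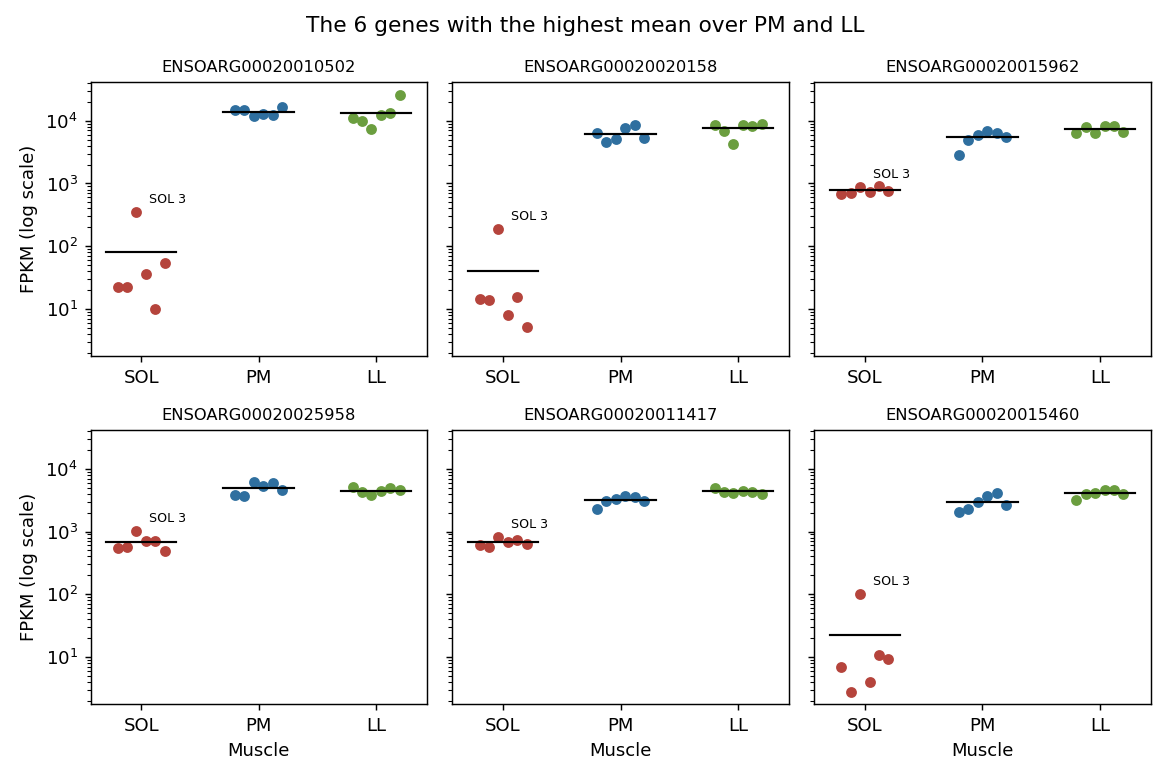
FPKM on a log scale in each library of SOL, PM and LL for the 6 genes with the highest mean over PM and LL. Points are libraries and bars are means of 6 libraries; SOL 3 is marked and stands far above the other SOL libraries for ENSOARG00020010502, ENSOARG00020020158 and ENSOARG00020015460.

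Relative to PM and LL, the lowest SOL mean over 6 libraries belonged to ENSOARG00020009054 (956 bp). It had 0.0877, 0.370 and 8.11 FPKM (lowest, median and highest library) in SOL, against 188, 329 and 451 FPKM in PM and 371, 612 and 666 FPKM in LL. The lower of its PM and LL means was 205 times its SOL mean. Without SOL 3 it was 1013 times, and ENSOARG00020018847 then had the largest fold, at 1118 times. ENSOARG00020008025 (2817 bp), at 165 times, had 1.01, 1.98 and 22.8 FPKM in SOL, against 642, 858 and 1139 FPKM in PM and 739.7, 1164 and 1267 FPKM in LL. SOL 3 was again the highest soleus library of both genes.

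The thresholds cut through a continuous range. Just inside the fold threshold, ENSOARG00020026201 averaged 14.9 FPKM in SOL, 59.9 in PM and 64.6 in LL (4.01 times), and ENSOARG00020003843 averaged 8.18 FPKM in SOL, 33.0 in PM and 45.8 in LL (4.03 times). Just outside it, ENSOARG00020023422 averaged 5.87 FPKM in SOL, 23.2 in PM and 28.2 in LL (3.95 times), and ENSOARG00020006854 averaged 7.68 FPKM in SOL, 50.9 in PM and 30.0 in LL (3.91 times). At the level threshold, ENSOARG00020026152 was inside with 2.74 FPKM in SOL, 11.1 in PM and 18.3 in LL, and ENSOARG00020009466 was outside with 0.733 FPKM in SOL, 9.87 in PM and 16.2 in LL.

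The 82 genes made up 0.692 ± 0.160% of all FPKM in SOL libraries, 10.2 ± 1.04% in PM libraries and 11.6 ± 1.58% in LL libraries (SD, n = 6 each). Counted as reads, which weight long genes more, they held 0.801 ± 0.139% in SOL libraries, 6.88 ± 1.12% in PM libraries and 8.54 ± 0.418% in LL libraries (SD, n = 6 each). The 3 most abundant genes carried much of this. Without them the share of FPKM was 0.531% in SOL, 5.29% in PM and 6.37% in LL. SOL 3 stood apart in its muscle at 1.02%, while the other 5 SOL libraries lay between 0.595% and 0.651%.

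**Figure D3:**
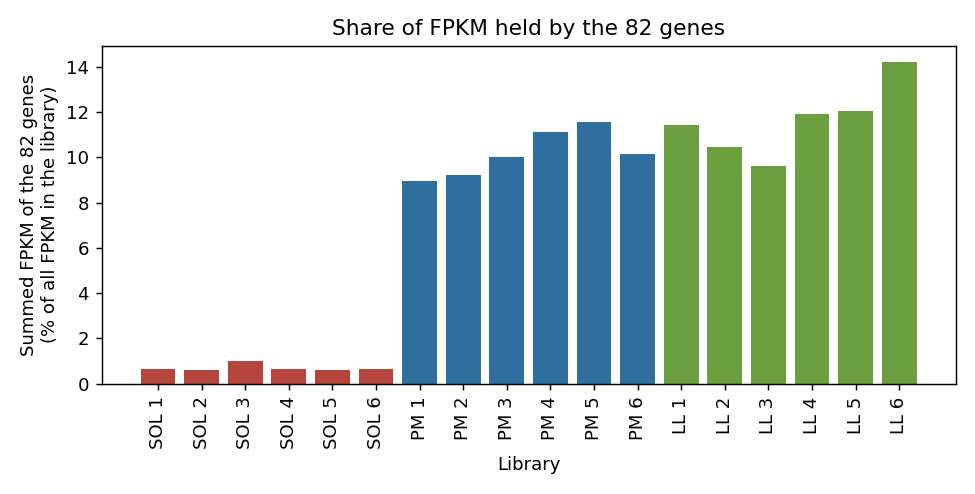
Summed FPKM of the 82 genes as a percentage of all FPKM, 1 bar per library of SOL, PM and LL. SOL bars lie between 0.595% and 1.02%, PM bars between 8.93% and 11.6% and LL bars between 9.61% and 14.2%.

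PM was compared with LL, the contrast that the rule did not use, to find whether the 2 muscles with high levels differed from each other. Of the 82 genes, 7 were lower in PM than in LL and 0 were higher (limma, adjusted p under 0.05 over all genes tested). Over the 15434 genes tested, 0.551% were called lower in PM, 0.933% higher and 1.48% either way. Among the 5847 other genes with means of at least 10 FPKM in PM and LL, 0.924% were called lower in PM and 2.24% either way, and the 7 genes are 8.54% of the 82. At an unadjusted p under 0.05, 23 of the 82 were lower and 4 higher in PM, against 5.24% and 7.41% of all genes tested. These 2 shares were not computed for the other genes over 10 FPKM, and many genes tested lie at lower levels. Fitted on the PM and LL libraries alone, limma called 5 lower and 0 higher. With limma's voom on the recovered reads, 12 were called lower and 1 higher. With the library number as a block in the fit, limma called 10 lower and 1 higher. The lower calls numbered 4 without PM 1 and 4 without PM 2.

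The tilt towards LL was small for most of the genes. The rule asked for high means in both PM and LL, so genes very low in either were left out. That narrows how far the 82 genes could differ between them. PM minus LL on the log2(FPKM + 0.1) scale was under 0 for 60 of the 82 (73.2%) and over 0 for 22, where 43.2% of all genes tested and 53.6% of the other genes over 10 FPKM were under 0. Its median was -0.30 for the 82 genes, 0.06 for all genes tested and -0.02 for the other genes over 10 FPKM. The difference stayed within 1 on the log2 scale for 72 genes and ranged from -2.38 to 0.99. Of the 14 genes with an LL mean over 1000 FPKM, 12 had a lower mean in PM. Choosing genes by their LL mean favours that outcome, so nothing is read from this count. Each PM library lay below each LL library for 9 of the 82 genes, against 0.609% of all genes tested, and above each LL library for 0, against 0.719%. Shares without overlap were not computed for the other genes over 10 FPKM, so the 9 have no background of like level.

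**Figure D4:**
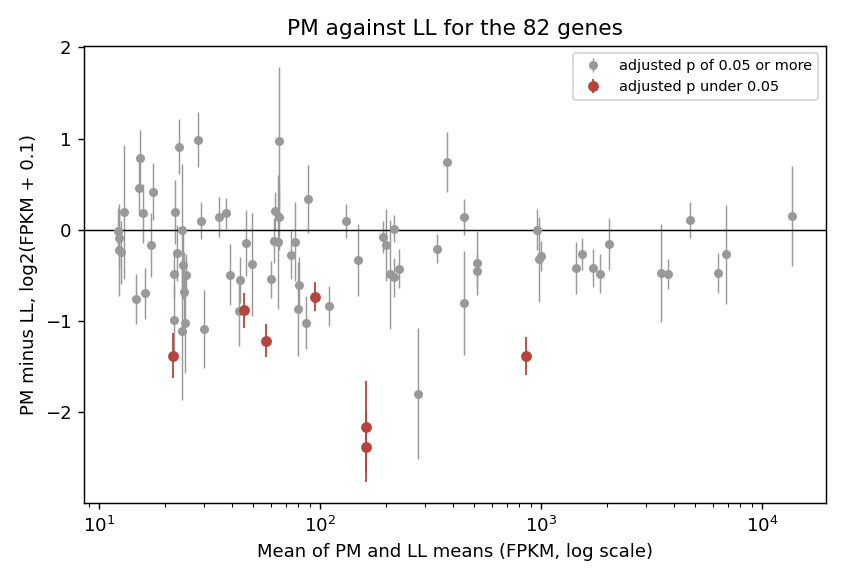
PM minus LL on the log2(FPKM + 0.1) scale, with SE from limma, against the mean of the PM and LL means in FPKM (log scale) for the 82 genes. The 7 genes with an adjusted p under 0.05 all lie below 0, between -2.38 and -0.73.

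The largest fall in PM was that of ENSOARG00020010048 (1737 bp). It had 21.7, 42.4 and 99.95 FPKM (lowest, median and highest library) in PM, against 114, 206 and 534 FPKM in LL, and the groups did not overlap. PM minus LL came to -2.38 on the log2 scale (SE 0.39), with a limma adjusted p of 0.0020. In SOL it stood at 5.27, 6.58 and 14.9 FPKM. Its level was graded over the 3 muscles, with the step from SOL to PM required by the rule.

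ENSOARG00020009011 (2748 bp) was likewise graded, with 13.5, 24.2 and 32.9 FPKM (lowest, median and highest library) in SOL, 259.9, 473 and 656 FPKM in PM and 993, 1226 and 1554 FPKM in LL. No PM library reached the lowest LL library (PM minus LL -1.38 on the log2 scale with SE 0.21, adjusted p = 0.0013 by limma). ENSOARG00020017454 (1745 bp) had 7.46, 12.9 and 16.8 FPKM in PM, against 24.2, 31.6 and 39.0 FPKM in LL, again without overlap (PM minus LL -1.38 on the log2 scale with SE 0.25, adjusted p = 0.0044 by limma). The remaining calls outside the largest 4 had log2 fold changes of -0.73 to -1.21.

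A weaker call was that of ENSOARG00020003727 (3179 bp). Its PM libraries had 15.2, 41.3 and 186 FPKM (lowest, median and highest), against 60.2, 256 and 588 FPKM in LL, and the groups overlapped. PM minus LL came to -2.16 on the log2 scale with SE 0.50 (adjusted p = 0.032 by limma). Over the alternatives its adjusted p ranged from 0.0037 to 0.149, and the call was lost without any of LL 1, LL 3, LL 4, LL 5, PM 1, PM 2, PM 4, PM 5 or PM 6. It was also lost in the limma fit on PM and LL only, which gave the adjusted p of 0.149.

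For ENSOARG00020018847 (4207 bp) the outcome depended on SOL 3 and on the scale of the test. The gene had 39.2, 140.2 and 223 FPKM (lowest, median and highest library) in PM, against 272, 418 and 613 FPKM in LL, without overlap. PM minus LL came to -1.79 on the log2 scale with SE 0.71 (adjusted p = 0.263 by limma). In SOL it had 0 FPKM in SOL 2, 0.0946 to 0.179 FPKM in 4 other libraries and 8.66 FPKM in SOL 3, and the SOL libraries enter the spread that the test uses for PM and LL. Without SOL 3 its adjusted p was 0.0090, and in a fit on PM and LL only it was 0.0446. With SOL 3 kept, voom on the recovered reads gave an adjusted p of 0.0015 and limma with a pseudocount of 1 gave 0.0548. The range over all alternatives was 0.0015 to 0.466.

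Other genes of the set were even between PM and LL. ENSOARG00020003583 (1949 bp) had 448, 1031 and 1236 FPKM (lowest, median and highest library) in PM and 623, 998 and 1347 FPKM in LL, beside 169.6, 222 and 265 FPKM in SOL. Its log2 fold change of PM against LL was the nearest to 0, at 0.0021 (SE 0.23). ENSOARG00020019237 (983 bp), among the least variable in PM and LL, had 22.8, 30.5 and 36.4 FPKM in PM and 23.5, 27.6 and 33.3 FPKM in LL, beside 3.61, 5.28 and 9.90 FPKM in SOL. The highest log2 fold change, 0.99 for ENSOARG00020017100, did not pass (limma adjusted p = 0.115, and 0.0399 to 0.266 over the alternatives). That gene, named after its values were seen, had 21.6, 35.8 and 61.1 FPKM in PM and 12.8, 16.2 and 29.0 FPKM in LL.

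Within soleus, SOL 3 was the highest library for 42 of the 82 genes (51.2%), whereas it was the highest for 11.1% of genes tested and for 10.4% of the other genes over 10 FPKM in PM and LL. It exceeded the mean of the other 5 SOL libraries for 66 of the 82 (80.5%), against 39.3% of those other genes. For 8 genes SOL 3 was at least 4 times the second highest SOL library, by factors of 4.18 to 48.3. These were the 8 genes with the largest fold, from 79.3 upwards, and the next gene stood at 29.1. Leaving SOL 3 out, the lower of their PM and LL means was 143 to 1118 times their SOL mean. Their levels in the other 5 libraries differed widely: ENSOARG00020018847 lay at 0.179 FPKM or less there, ENSOARG00020009054 between 0.0877 and 0.567 FPKM, and ENSOARG00020010502 between 9.89 and 53.1 FPKM.

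The amount by which SOL 3 exceeded the mean of the other SOL libraries was also set against the mean of PM and LL. For the 7 genes with a fold of 80 or more it came to 1.73% to 3.90% of that mean, with a median of 2.52%. The medians were 4.27% for the 13 genes at 16 to 80, 3.64% for the 14 genes at 8 to 16 and 3.03% for the 48 genes at 4 to 8. In the last group the values spread from -9.34% to 16.9%, and SOL 3 was the highest library for 16 of the 48. The origin of the higher levels in SOL 3 was not tested. Its library total of 13663779 reads and its 15149 genes detected lay within the range of the other SOL libraries.

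**Figure D5:**
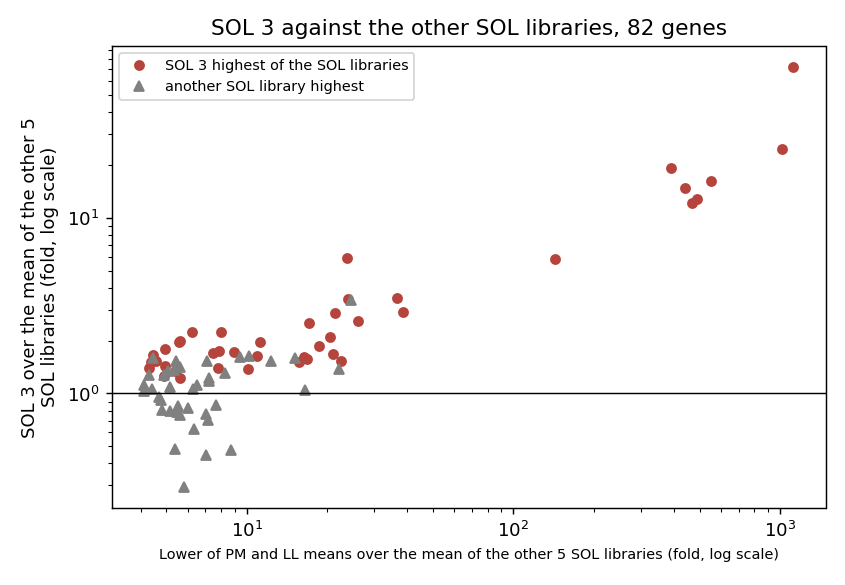
SOL 3 over the mean of the other 5 SOL libraries (fold, log scale) against the lower of the PM and LL means over that same mean (fold, log scale) for the 82 genes. Both axes share the mean of the other 5 SOL libraries; the 8 genes on the right, at 143 to 1118 times, have the highest values of SOL 3 but for 1 gene further left.

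The genes varied among libraries of the same muscle. Their median CV was 0.429 in SOL, 0.275 in PM and 0.274 in LL, where the other genes over 10 FPKM in PM and LL had 0.184 in SOL, 0.175 in PM and 0.232 in LL. The SOL figure compares genes at unequal levels, since the 82 genes are low there. ENSOARG00020001284 (1558 bp) varied most in PM and LL, with CVs of 1.08 and 0.964. It stood at 52.0 FPKM in PM 2, against 1.96 to 16.7 FPKM in the other PM libraries, and at 88.6 FPKM in LL 2, against 10.2 to 33.8 FPKM in the other LL libraries. In SOL the highest library was SOL 5, at 7.53 FPKM.

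That the same number was highest in PM and in LL held for 32 of the 82 genes (39.0%), and for 24.9% of the other genes over 10 FPKM. Over the 82 genes, the deviations of same-numbered PM and LL libraries from their muscle means correlated with r from 0.387 to 0.703 over the 6 numbers, where the other genes over 10 FPKM gave 0.107 to 0.449. Between SOL and PM the r of the 82 genes ran from -0.102 to 0.383, against 0.179 to 0.452 for the other genes. Between SOL and LL it ran from -0.181 to 0.390, against 0.123 to 0.439 for the other genes. The 82 genes thus had the higher r for all 6 numbers between PM and LL, and for 1 of 6 numbers in each pair with SOL. Between PM and LL the gap was slight for number 1 (0.452 against 0.449) and number 4 (0.46 against 0.448). The median reads per gene and library were 118.5 in SOL, 1194 in PM and 1498 in LL. Whether these fewer reads or the high levels in SOL 3 lowered the r with SOL was not tested. These correlations are across genes, which are not independent replicates. PM 1 was the lowest PM library for 29 of the 82 genes and PM 2 for 24, against 13.2% and 11.6% of the other genes. PM 4, in contrast, was the lowest for 3 of the 82 and for 28.3% of the other genes. The FPKM were not rescaled here. Median-ratio factors (median of a library's gene values over their geometric means) were 1.031 for PM 1, 1.045 for PM 2 and 0.868 for PM 4. How far such differences between libraries shape these counts was not tested.

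The genes did not move as 1 block within muscles. The median correlation between pairs of the 82 genes, on deviations from the muscle means over 18 libraries, was 0.136, against 0.049 for the other genes over 10 FPKM. Within SOL it was 0.228 for the 82 genes and 0.080 for the others, within PM 0.107 and 0.119, and within LL 0.018 and 0.013. Over the 18 libraries less SOL 3, the median was 0.070 for the 82 genes and 0.050 for the others, a smaller gap than with SOL 3. The other libraries were not left out in turn. All pairs share the same libraries, and the values are a description.

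In gene length, which the rule did not use, the 82 genes were like other genes of their level. Their recovered lengths had a median of 1538 bp with quartiles of 986 and 2391 bp, against 1536 bp with quartiles of 955 and 2540 bp for the other genes over 10 FPKM. A length divisible by 3 was found for 41 of the 82 and for 42.7% of the others. The longest was ENSOARG00020011759 at 8000 bp, with 3.48, 4.46 and 5.96 FPKM (lowest, median and highest library) in SOL, against 12.4, 19.7 and 28.7 FPKM in PM and 15.9, 30.1 and 36.7 FPKM in LL. After the 96 bp gene the shortest was ENSOARG00020003384 at 246 bp, with 0, 2.74 and 6.82 FPKM in SOL, against 8.08, 21.6 and 44.1 FPKM in PM and 9.55, 17.0 and 43.9 FPKM in LL. Its 56 reads over the SOL libraries limit the precision of its soleus level.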

How the data were processed

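Per the labels' protocols, total RNA was depleted of ribosomal RNA and reverse transcribed with random hexamers, trimmed reads were mapped to a sheep genome by HISAT2 (2.2.1), and StringTie (2.2.0) assembled transcripts. Which genome build, annotation, counter and strand option served is not given in the sources used here. FPKM values were deposited by the authors in 1 table. Its header names no unit, and the unit was inferred from the values. Given 1 total per library, a whole gene length was accepted where all positive values came within 0.05 of a whole read number. The search thus set that match, which is no separate test of the unit. It gave reads, lengths and totals, and the recovered reads summed to at least 99.9964% of each library total. This recovery and the limma fit were tested on simulated data.

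The 82 genes, the rules for naming genes and the alternatives were chosen with earlier results of these data known. Named genes were those highest in PM and LL, lowest in SOL, nearest the thresholds, most and least variable, longest and shortest, the 4 largest calls each way in PM against LL, the gene nearest 0 there, and those with the largest gap among SOL libraries. Values in SOL against PM or LL chose the genes and were not tested. Genes averaging 0.1 FPKM or more were tested for PM against LL as log2(FPKM + 0.1) in limma (3.58.1, R 4.3.3) with a variance trend, 18 libraries, 15 residual degrees of freedom and p-values adjusted by Benjamini-Hochberg over all genes tested, two-sided. Fold changes on this scale understate changes of low genes.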

Additional observations from a re-analysis of the deposited data

Results flagged for a closer look

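Within muscles, the extreme libraries were set against the others of the 6 for the named genes and for the share of FPKM held by the 82 genes (Dixon's test). Of 66 sets, 13 stood out. Chance flags about 1 in 20 sets that were not chosen for their spread, and the 13 cannot be read against that rate: several genes were named for a wide gap among SOL libraries, for a large CV in PM and LL or for low SOL levels. The values are given as a description.

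SOL 3 was the library standing apart in 7 sets, 3 of them of genes named for that gap (ENSOARG00020018847, ENSOARG00020009054 and ENSOARG00020020158). It held 348.4 FPKM of ENSOARG00020010502 against 53.1 FPKM or less in the other SOL libraries, 185.6 of ENSOARG00020020158 against 15.4 or less, 99.65 of ENSOARG00020015460 against 10.8 or less, 22.76 of ENSOARG00020008025 against 2.38 or less, 8.115 of ENSOARG00020009054 against 0.567 or less and 8.663 of ENSOARG00020018847 against 0.179 or less. The share of FPKM held by the 82 genes was 1.017% in SOL 3 against 0.651% or less.

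In PM, ENSOARG00020003843 reached 52.96 FPKM in PM 2, where no other PM library exceeded 32.8, ENSOARG00020003727 reached 186.2 FPKM in PM 3, where none exceeded 61.4, and ENSOARG00020001284 reached 51.97 FPKM in PM 2, where none exceeded 16.7. In LL, ENSOARG00020010502 reached 25940.0 FPKM in LL 6, where no other LL library exceeded 13470.0, ENSOARG00020026201 reached 94.55 FPKM in LL 5 against 69.3 or less and ENSOARG00020001284 reached 88.63 FPKM in LL 2 against 33.8 or less. The causes were not tested.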

How the results depend on the processing

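The median log2 fold change of PM against LL over the 82 genes kept its direction under all 28 alternatives and lay between -0.41 and -0.21. With single libraries left out, the lower calls ranged from 4 to 9 and the higher calls stayed at 0. The lower calls numbered 12 with voom, and the higher calls 1 with voom and 1 with the replicate block. The limma fit on PM and LL only gave 5 lower calls and 0 higher. In that fit ENSOARG00020003727 (limma adjusted p = 0.149), ENSOARG00020013089 (0.052) and ENSOARG00020021690 (0.052) were no longer called. The replicate block gave 10 lower calls, and its higher call was ENSOARG00020007644 (limma adjusted p = 0.0214, against 0.158 without the block). Over all genes, same-numbered libraries correlated at 0.125 to 0.229 between SOL and PM, which passed the 0.1 asked of every pair, at 0.0856 to 0.188 between SOL and LL and at 0.0897 to 0.18 between PM and LL, where the lowest missed it. In each pair of muscles, every same-number r exceeded every r between different numbers. The latter were at most 0.017 for SOL and PM, 0.0522 for SOL and LL and 0.0070 for PM and LL. This is a hint from the data that the numbers may pair the libraries, and the main fit did not use such a pairing.

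Under the membership rule, a fold threshold of 8 left 34 genes, and leaving out single libraries gave 78 to 87 genes. Other settings gave 61 to 122. With single libraries left out, the share of FPKM held by the genes was 0.627% to 0.712% in SOL, 9.88% to 10.4% in PM and 11.1% to 12.0% in LL. Without the 3 most abundant genes it was 0.5314% in SOL, 5.291% in PM and 6.372% in LL.

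Of 588 values of 21 named genes, 13 reversed, all in 2 genes near 0. ENSOARG00020003583 stood at -0.01323 with library quality weights and at -0.07615 without LL 3, SOL 3 and SOL 5, and between -0.1102 and 0.2096 without single libraries. ENSOARG00020003384 lay between -0.2257 and 0.2621 without single libraries. The causes were not tested. Reads limit the precision of SOL levels, where 5 genes had a library at 0.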
